A study of Homo sapiens with 4 samples.

Results

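TCOF1 and 9 other genes of the RNA polymerase I (Pol I) machinery were followed through mammospheres grown from the established breast cancer line MDA-MB-468, which is triple-negative and basal-like. The 10 genes were taken by name from the 26475 genes of the deposited count tables, by a rule that used no measured value, though with earlier results of these data known: TCOF1 and NOLC1, the initiation factors UBTF, RRN3 and TAF1C, and the Pol I subunits POLR1A, POLR1B, POLR1C, POLR1D and POLR1E. All of the cells carried lentiviral spCas9 marked by mCherry and a doxycycline-inducible guide construct marked by eGFP, and were sorted for both colours. CTL cells carried the control construct and had no treatment, CTL+dox cells carried the control construct and received doxycycline, gRNA2 cells carried a guide against TCOF1 and had no treatment, and gRNA2+dox cells carried that guide and received doxycycline to induce it. The labels give the genotype as wild type in CTL, CTL+dox and gRNA2, and as Knockout of TCOF1 in gRNA2+dox. RNA was pooled from 6 to 7 plates of spheres after 7 days of culture into 1 library per condition, so that every difference below compares 2 libraries and has no replicate check and no p-value. The doxycycline concentration used for these libraries is not given in the sources used here.

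Pol I transcribes the repeated ribosomal DNA genes in the nucleolus into the precursor of the large ribosomal RNAs. UBTF (UBF) coats the ribosomal DNA, the SL1 complex (which contains TAF1C) marks the promoter, and RRN3 (TIF-IA) joins the polymerase to it. TCOF1 encodes treacle, a nucleolar phosphoprotein that binds UBTF and Pol I, and NOLC1 (Nopp140) is its structural relative. Mutations in TCOF1, POLR1B, POLR1C or POLR1D cause Treacher Collins syndrome, a disorder of facial development. Fast-growing tumour cells depend on high rates of ribosomal RNA synthesis.

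The guide carried by the gRNA2 cells is shown first, since it defines the perturbation, with the NOLC1 site nearest to it in sequence below it. In the target the capitals mark the PAM, the motif that Cas9 needs beside its target, and in the NOLC1 site they mark mismatches to the guide.
TCOF1 gRNA2 target: gggccggcgcctttccccaaGGG
NOLC1 nearest site: ggAGcTgcTcTCttccTcaCtgg

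The target lies on the reverse strand at chr5:149754959-149754981 of GRCh37, in exon 11 of 27 of the canonical TCOF1 transcript (exon 149754902 to 149755117), and it matched TCOF1 once. It covers bases 1596 to 1618 of the 5026-base transcript. The expected cut falls after coding base 1551 of 4467, 34.7% of the way through the coding sequence. The closest sites with an NGG PAM in the canonical transcripts of the other 9 genes differed from the guide at 7 bases (TAF1C) to 11 bases (RRN3). The NOLC1 site differed at 8, which were G3A, C4G, G6T, G9T, C11T, T12C, C17T and A20C, with positions counted from 1 at the 5′ end of the guide. This search covered only those transcripts, and the edits themselves cannot be read from gene counts. The count tables are labelled hg38, and in the RefSeq annotation of that build (GRCh38.p14) TCOF1 spans 150357697 to 150400293 of chromosome 5, and POLR1A (86020216 to 86105886) and POLR1B (112542036 to 112579818) both lie on chromosome 2. RRN3 (15060022 to 15094335) and TAF1C (84177855 to 84187057) share chromosome 16.

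The libraries held between 19960644 and 26322847 reads on genes, 79.7% to 81.0% of all reads tallied. The 10 genes together took 8494 to 10866 reads per library, and the lowest value of any of them was 291 reads, for POLR1E in CTL. All 10 were among the 15204 genes with at least 10 reads in at least 1 library. The 10 basal-like epithelial markers KRT5, KRT6B, KRT14, KRT17, KRT81, EGFR, FOXC1, CDH3, EPCAM and CDH1 summed to between 17220 and 18760 CPM (counts per 1000000 reads on genes, after TMM scaling of the libraries), against 13.0 to 15.0 CPM for ESR1, PGR and ERBB2. White blood cell markers summed to 10.9 to 12.9 CPM, nearly all of it CD14. Fibroblast markers summed to 16.9 to 21.5 CPM, nearly all of it COL1A1, and endothelial markers to 0.916 to 1.54 CPM with CDH5 at 0.

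TCOF1 had the widest range of the 10 genes, 2.53 times between its highest and lowest library. CTL held 1019 TCOF1 reads and gRNA2 held 1318, while CTL+dox held 754 and gRNA2+dox 437. In the order CTL, CTL+dox, gRNA2 and gRNA2+dox, these correspond after TMM scaling to 49.9, 33.5, 50.6 and 20.0 CPM. CTL and gRNA2 stood together at the top, CTL+dox was below both, and gRNA2+dox was the lowest of the 4. The exact 95% Poisson interval of the gRNA2+dox level, 18.2 to 22.0 CPM, lay below that of CTL+dox, 31.1 to 36.0 CPM. TCOF1 RNA was therefore reduced in the library labelled Knockout of TCOF1 but still detected at 39.6% of its level in gRNA2.

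**Figure D1:**
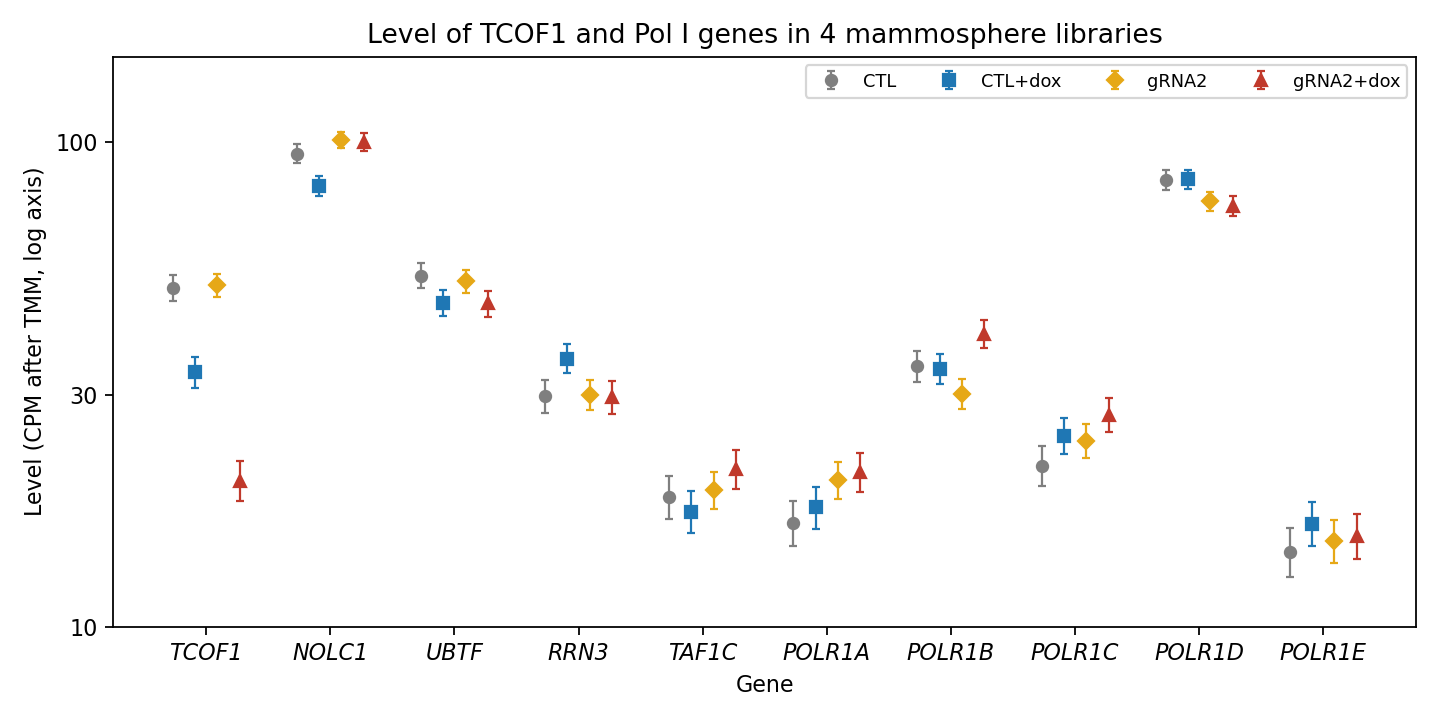
Level of each gene in each library, in CPM after TMM scaling on a log axis, with bars for the exact 95% Poisson interval of 1 library (counting error only). TCOF1 runs from 50.6 CPM in gRNA2 to 20.0 CPM in gRNA2+dox, whereas the highest and lowest libraries of each other gene differ by at most 1.33 times.

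In gRNA2+dox against gRNA2, the comparison of induced with uninduced guide in the same cells, the log2 fold change of TCOF1 was −1.34, with an exact 95% interval from −1.50 to −1.18 that covers counting error only. Against CTL+dox, where both libraries had received doxycycline, it was −0.74 (−0.92 to −0.57), which left 59.8% of the CTL+dox level. Against CTL it was −1.32 (−1.48 to −1.16). A gene was called where this interval lay off 0 and the log2 fold change was at least 0.5 in size. By that rule TCOF1 was lower in all 3 comparisons, and the other 9 genes were called in none of them.

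Among all 15204 genes, 3.05% were called lower and 2.08% higher in gRNA2+dox against gRNA2, 5.04% and 3.38% against CTL+dox, and 4.32% and 2.42% against CTL. The 1 gene of 10 called lower in each of these comparisons was the gene targeted by the guide. Of all tested genes, 1.03% were called lower against all 3 of the other libraries and 0.631% higher. Genes of few reads make up many of these calls, so the 10 genes were also placed among the 8073 genes whose mean read number was at least that of the lowest of the 10, POLR1E (346 reads). None of the other genes had a lower log2 fold change than TCOF1 in gRNA2+dox against gRNA2, 6 did against CTL and 25 did against CTL+dox. At this depth 0.273% of genes were called lower against gRNA2, 0.694% against CTL and 1.09% against CTL+dox.

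**Figure D2:**
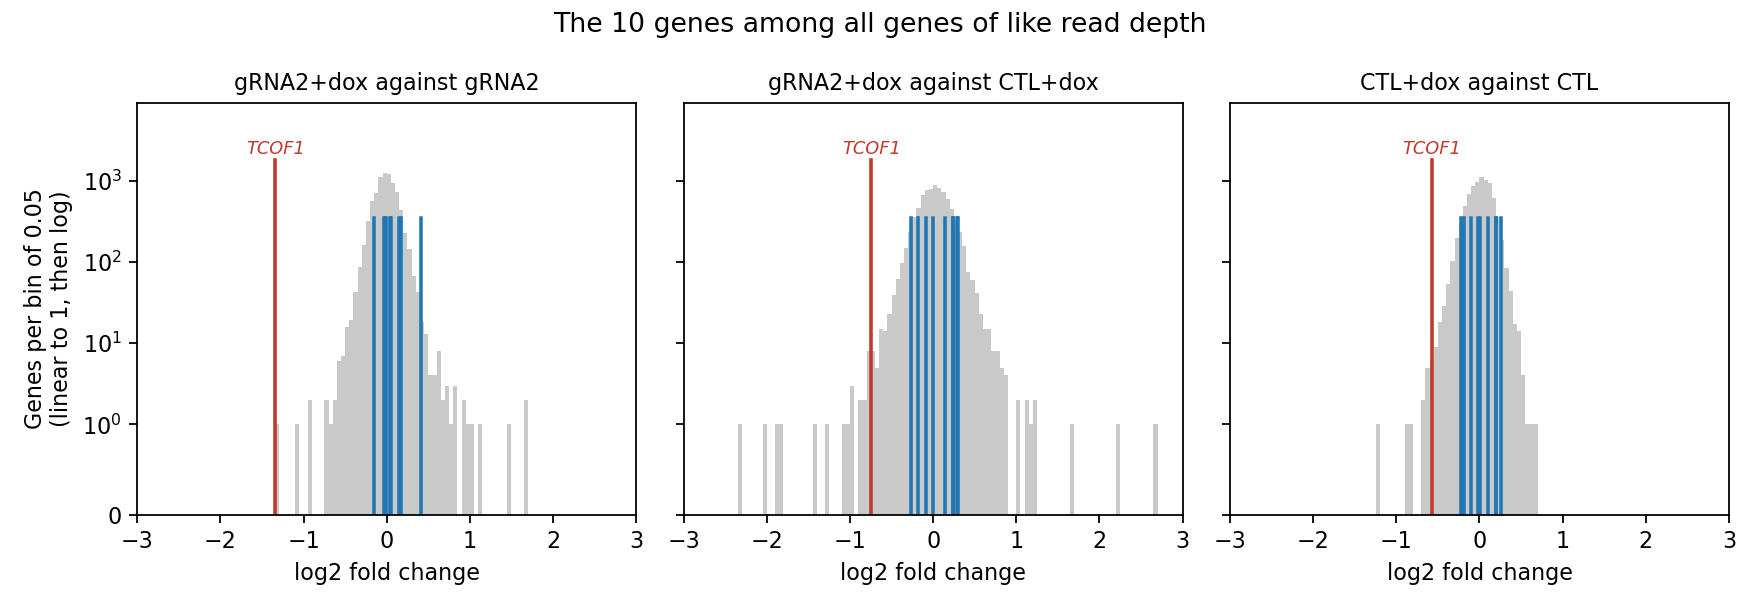
Log2 fold changes of the 8073 genes with a mean read number at least that of POLR1E (grey, genes per bin of 0.05 on an axis that is linear to 1 and logarithmic above), with TCOF1 in red and the other 9 genes in blue. TCOF1 stands at the lower edge of the gRNA2+dox to gRNA2 distribution at −1.34, and at −0.58 in CTL+dox against CTL, while the other 9 lie nearer to 0, the farthest being POLR1B at 0.41 in the left panel; the heights of the coloured lines carry no value.

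TCOF1 was also lower in CTL+dox than in CTL, 2 libraries from cells without a TCOF1 guide. The log2 fold change was −0.58 (−0.71 to −0.44), which corresponds to 67.1% of the CTL level. By the same rule 2.04% of all tested genes were called lower and 1.74% higher in this comparison, and 10 of the 8073 genes at the depth of the 10 had a lower value than TCOF1. Whether this difference belongs to doxycycline or to these 2 libraries cannot be told apart with 1 library per condition. gRNA2 against CTL, which compares the uninduced guide with the control construct, gave 0.02 (−0.10 to 0.14) for TCOF1, and none of the 10 genes was called, against 2.91% of all genes called lower and 1.98% higher. With total counts in place of TMM the TCOF1 value was −0.03, of the opposite sign.

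The difference of the log2 ratio of TCOF1 with doxycycline, gRNA2 cells minus CTL cells, was −0.76 (−0.97 to −0.56, counting SE 0.11). TCOF1 was the 1 gene of the 10 called for this difference, against 3.87% of all tested genes called lower and 2.90% higher. 8 of the 8073 genes at the same depth had a lower difference.

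The position of TCOF1 can be read without any scaling between libraries by setting its reads against those of another gene in the same library. For every 100 reads of NOLC1 the CTL library held 52.8 TCOF1 reads (48.9 to 57.0) and the gRNA2 library 50.2 (46.9 to 53.6), whereas CTL+dox held 41.2 (37.8 to 44.9) and gRNA2+dox 20.0 (18.0 to 22.2). Against UBTF, whose protein treacle binds, there were 94.2, 72.0, 98.1 and 43.1 TCOF1 reads per 100 in CTL, CTL+dox, gRNA2 and gRNA2+dox. Against the summed reads of the 5 POLR1 subunits there were 29.3, 19.0, 30.7 and 11.3. All 3 ratios put the libraries in the same groups: CTL and gRNA2 with overlapping intervals, then CTL+dox, then gRNA2+dox. The 3 ratios share the TCOF1 reads and are not independent of each other. NOLC1 and UBTF were themselves lower in CTL+dox than in CTL, with log2 fold changes of −0.22 and −0.19.

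**Figure D3:**
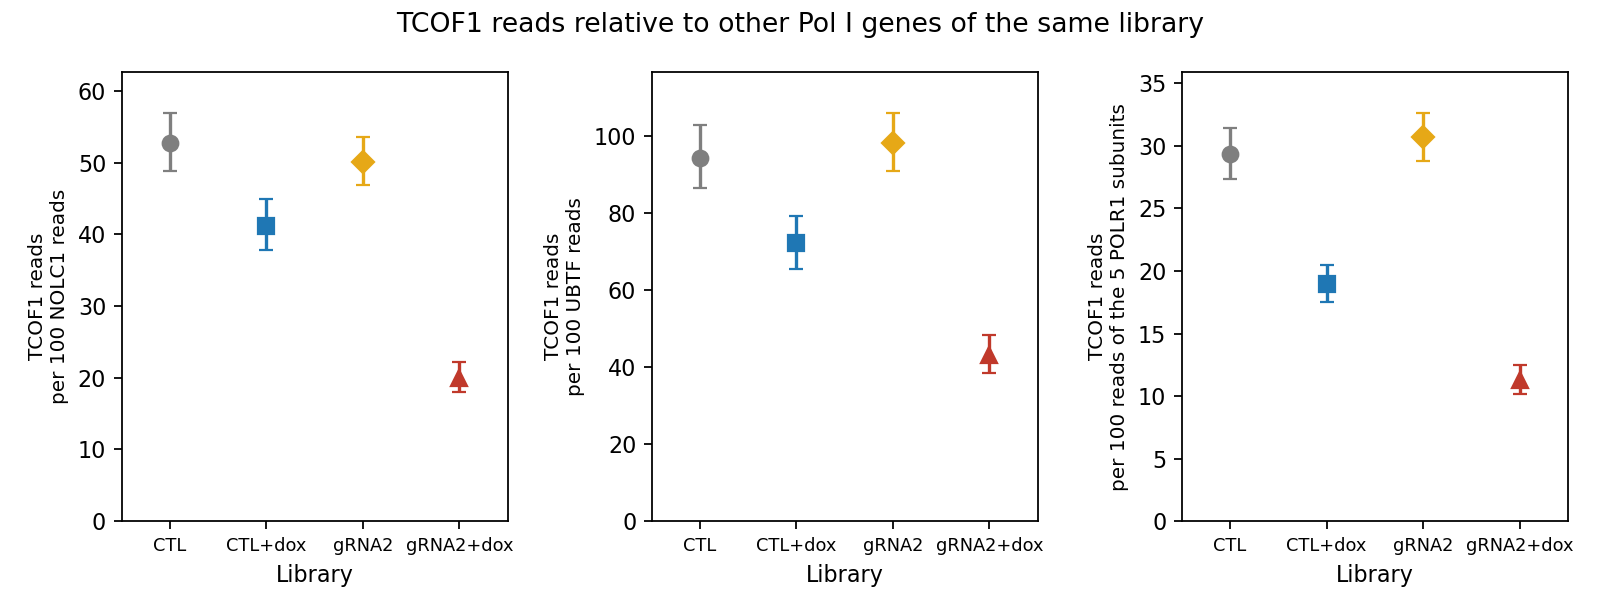
TCOF1 reads per 100 reads of NOLC1 (left), UBTF (middle) and the 5 POLR1 subunits together (right) within each library, with exact 95% intervals for counting error. In each panel CTL and gRNA2 overlap, CTL+dox is lower, and gRNA2+dox is lowest, at 20.0, 43.1 and 11.3.

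NOLC1, the structural relative of treacle, did not share this pattern. Its reads across CTL, CTL+dox, gRNA2 and gRNA2+dox numbered 1931, 1829, 2627 and 2185, or 94.6, 81.2, 101 and 100 CPM. CTL+dox was the low library, and gRNA2, gRNA2+dox and CTL did not differ from their neighbours in that order beyond their counting intervals. In gRNA2+dox the log2 fold change was −0.01 (−0.09 to 0.07) against gRNA2 and 0.30 (0.21 to 0.39) against CTL+dox. In the CTL cells the ratio with doxycycline was −0.22 (−0.31 to −0.13). The difference of ratios was 0.21 (0.08 to 0.33).

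Among the initiation factors, UBTF had 1082, 1047, 1344 and 1014 reads in CTL, CTL+dox, gRNA2 and gRNA2+dox, or 53.0, 46.5, 51.6 and 46.4 CPM. The 2 libraries with doxycycline were the low pair, and the 2 without it the high pair. The log2 ratio with doxycycline was −0.19 (−0.31 to −0.07) in CTL cells and −0.15 (−0.27 to −0.03) in gRNA2 cells, and the difference of the 2 ratios, 0.04 (−0.13 to 0.21), covered 0. UBTF in gRNA2+dox against CTL+dox was 0.00 (−0.13 to 0.12).

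RRN3, which brings Pol I to the promoter, had 610, 805, 784 and 649 reads in the same order, or 29.9, 35.7, 30.1 and 29.7 CPM. CTL+dox alone stood high, and the other 3 libraries were not apart. The log2 ratio with doxycycline was 0.26 (0.11 to 0.41) in CTL cells and −0.02 (−0.17 to 0.13) in gRNA2 cells, and against CTL+dox the gRNA2+dox library was at −0.27 (−0.42 to −0.12). RRN3 has near-identical copies in the genome, and its count may be incomplete or mixed to that extent. The copies RRN3P1, RRN3P3 and RRN3P2 took 20 to 22, 35 to 47 and 1 to 7 reads per library.

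TAF1C, a subunit of SL1, had 378, 389, 498 and 461 reads, or 18.5, 17.3, 19.1 and 21.1 CPM. gRNA2+dox, the highest, and CTL+dox, the lowest, were apart by 0.29 (0.09 to 0.49). Against gRNA2 its value was 0.14 (−0.04 to 0.33).

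**Figure D4:**
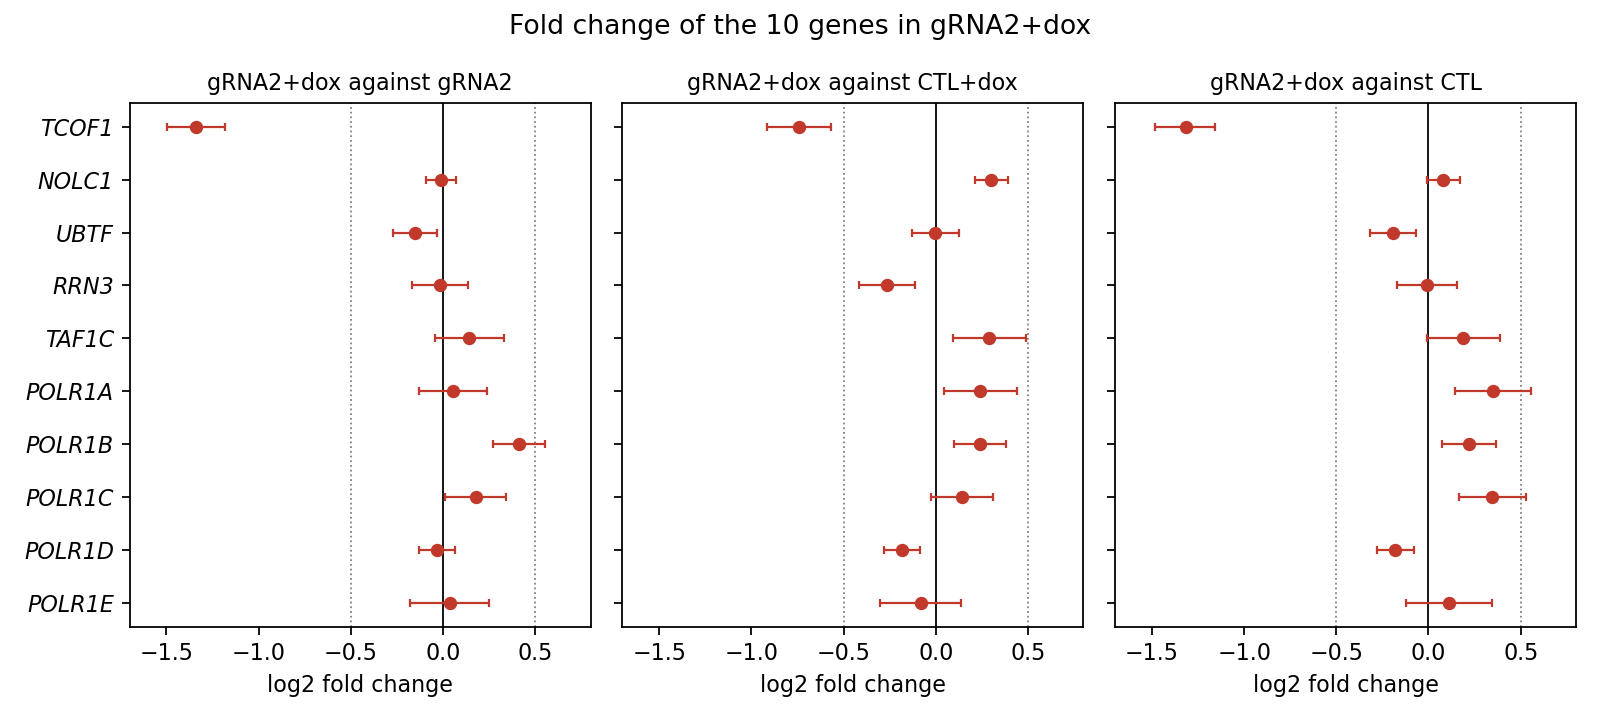
Log2 fold change of each gene in gRNA2+dox against gRNA2 (left), CTL+dox (middle) and CTL (right), with exact 95% counting intervals and dotted lines at a size of 0.5. TCOF1 lies beyond the lower line in all 3 panels, and the point of every other gene lies between the lines.

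The 5 subunits differed little in sum. Together they came to 170, 176, 165 and 177 CPM across CTL, CTL+dox, gRNA2 and gRNA2+dox, a range of 1.08 times, while the 9 genes without TCOF1 came to between 357 and 375 CPM, a range of 1.05 times. POLR1A and POLR1B form the catalytic core of the enzyme, POLR1C and POLR1D are assembly subunits shared with RNA polymerase III, and POLR1E belongs to the subcomplex that works in initiation and elongation.

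Of the 5 subunits, POLR1B had the widest range, 1.33 times. Across the libraries in that order it had 704, 766, 786 and 877 reads, or 34.5, 34.0, 30.2 and 40.2 CPM. gRNA2+dox was the highest library and gRNA2 the lowest, and CTL and CTL+dox lay between without being apart. Set beside the other libraries, gRNA2+dox gave a POLR1B log2 fold change of 0.41 (0.27 to 0.55) against gRNA2, 0.24 (0.10 to 0.38) against CTL+dox and 0.22 (0.08 to 0.37) against CTL. None of these reached 0.5, so POLR1B was not called. It was the 1 gene of the 10 with an interval above 0 against all 3 libraries, a property of 4.79% of all tested genes, and TCOF1 was the 1 gene with an interval below 0 against all 3, as were 4.74% of all genes. Of the 8073 genes at the same depth, 61 had a higher value than POLR1B against gRNA2. gRNA2, the lowest library, was itself below CTL, at −0.19 (−0.34 to −0.04). Per 100 reads of POLR1D there were 41.3, 40.6 and 40.0 POLR1B reads in CTL, CTL+dox and gRNA2, and 54.4 (50.1 to 59.1) in gRNA2+dox. Per 100 reads of POLR1A the numbers were 211, 193, 151 and 193, so that against its catalytic partner gRNA2 was the low library and gRNA2+dox equalled CTL+dox.

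POLR1A, the largest subunit, had 334, 397, 522 and 455 reads in CTL, CTL+dox, gRNA2 and gRNA2+dox, or 16.4, 17.6, 20.0 and 20.8 CPM. The 2 libraries of gRNA2 cells were the higher pair, with 0.29 (0.09 to 0.50) for gRNA2 against CTL and 0.06 (−0.13 to 0.24) for gRNA2+dox against gRNA2. The pairs were not fully separate, since gRNA2 and CTL+dox were not apart (−0.01 to 0.38). In gRNA2+dox POLR1A was at 0.24 (0.04 to 0.44) against CTL+dox, the same value as POLR1B, and at 0.35 (0.14 to 0.56) against CTL, where POLR1B was at 0.22. POLR1C had 439, 558, 630 and 597 reads, or 21.5, 24.8, 24.2 and 27.3 CPM. gRNA2+dox, the highest, and CTL, the lowest, were apart by 0.35 (0.17 to 0.53). The ratio with doxycycline was 0.20 (0.02 to 0.39) in CTL cells and 0.18 (0.01 to 0.34) in gRNA2 cells.

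POLR1D had 1706, 1885, 1966 and 1611 reads, or 83.5, 83.7, 75.5 and 73.8 CPM. The CTL cells were the higher pair and the gRNA2 cells the lower, with or without doxycycline: the ratio with doxycycline was 0.00 (−0.09 to 0.10) and −0.03 (−0.13 to 0.06), whereas gRNA2 against CTL was −0.15 (−0.24 to −0.05). POLR1E had 291, 367, 391 and 336 reads, or 14.3, 16.3, 15.0 and 15.4 CPM. It was the 1 gene of the 10 in which not even the highest and lowest libraries were apart.

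**Figure D5:**
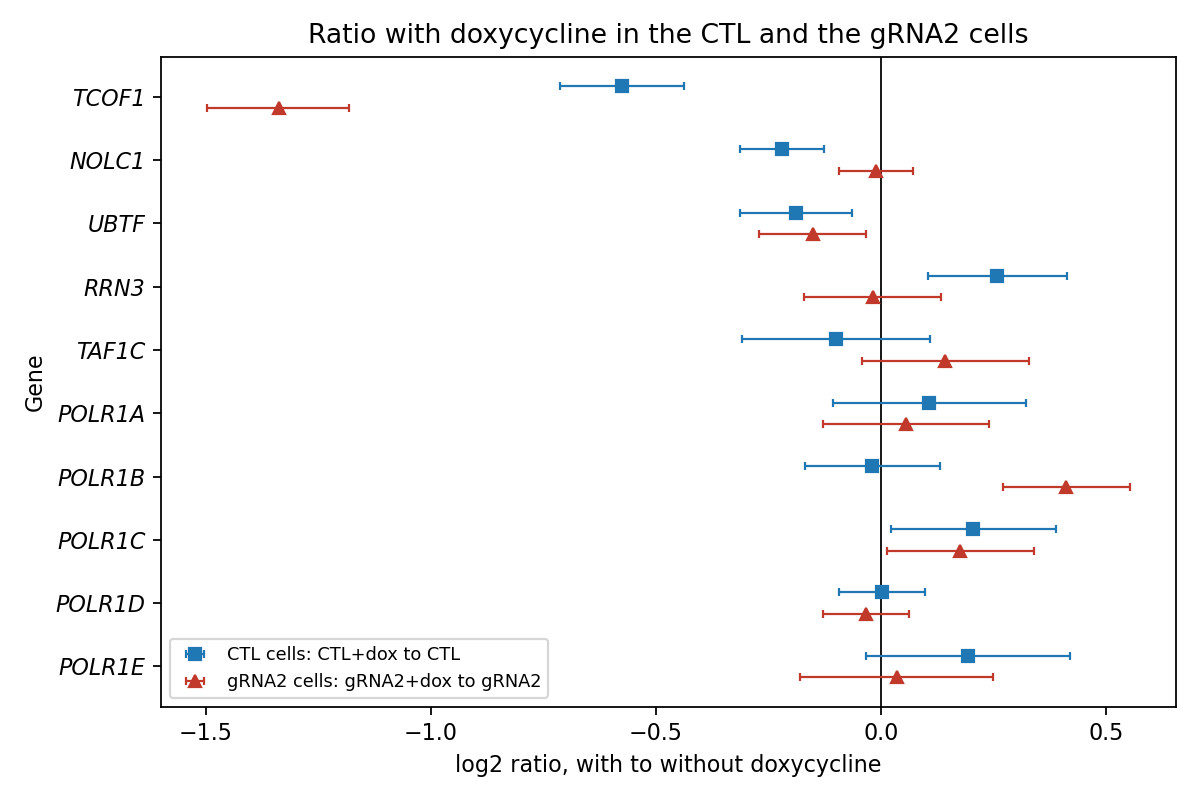
Log2 ratio with to without doxycycline for each gene in the CTL cells (blue squares) and the gRNA2 cells (red triangles), with exact 95% counting intervals. TCOF1 is the gene with both values well below 0, at −0.58 and −1.34, UBTF has similar values in both kinds of cell, and POLR1B is near 0 in CTL cells and at 0.41 in gRNA2 cells.

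A looser rule, an interval off 0 whatever the size, takes in more of the 10 genes, but also more of all genes. In gRNA2+dox against gRNA2 it took TCOF1 and UBTF as lower, with 17.3% of all tested genes, and POLR1B and POLR1C as higher, with 13.6%. Against CTL+dox it took TCOF1, RRN3 and POLR1D as lower (19.4% of all) and NOLC1, TAF1C, POLR1A and POLR1B as higher (20.8%). Against CTL it took TCOF1, UBTF and POLR1D as lower (14.7%) and POLR1A, POLR1B and POLR1C as higher (18.6%). For CTL+dox against CTL it took TCOF1, NOLC1 and UBTF as lower (14.3%) and RRN3 and POLR1C as higher (16.6%). For gRNA2 against CTL it took POLR1B and POLR1D as lower (11.8%) and NOLC1 and POLR1A as higher (19.7%). For the difference of the doxycycline ratios it took TCOF1 and RRN3 as lower (15.3%) and NOLC1 and POLR1B as higher (11.6%). The shares were all larger among the 8073 genes at the depth of the 10. For gRNA2+dox they were 23.5% lower and 19.6% higher against gRNA2, 24.0% and 31.6% against CTL+dox, and 16.9% and 29.2% against CTL. For CTL+dox against CTL they were 20.8% and 25.4%, and for gRNA2 against CTL 13.9% and 30.8%. For the difference they were 20.8% and 16.0%. The 3 comparisons of gRNA2+dox share that library and are not independent of each other.

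Levels of different genes were compared per kilobase of the canonical transcript. On that scale POLR1D was highest in every library, at 106 to 121 CPM per kilobase, followed by NOLC1 (21.8 to 27.1), POLR1C (16.9 to 21.4) and UBTF (9.68 to 11.1). POLR1A was the lowest in every library, at 1.31 to 1.67. TCOF1 was at rank 5 of the 10 genes in CTL and gRNA2, with 9.93 and 10.1 CPM per kilobase, at rank 7 in CTL+dox with 6.66 and at rank 9 in gRNA2+dox with 3.98. The order rests on the length used: the canonical POLR1D transcript has 693 bases, but the merged exons of all its annotated transcripts have 12363. Per kilobase of merged exons, by the mean of the 4 libraries, NOLC1 led, POLR1D was at rank 4, and POLR1A remained the lowest. TCOF1 was at rank 9 by that mean, against rank 7 by the mean per kilobase of the canonical transcript. Its place in CTL+dox also rested on the length: per kilobase of merged exons TCOF1 was below TAF1C there, at 2.93 against 3.10.

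Profiles over the 4 libraries were compared by the distance between centred log2 CPM values, among 7263 genes with at least 400 reads in every library. The genes nearest to TCOF1 included KIAA1462 (0.63), IL18 (0.69), SCEL (0.71) and FYN (0.71). A gene with the same level in all 4 libraries would be at 1.09. KIAA1462 had 593, 511, 752 and 431 reads in CTL, CTL+dox, gRNA2 and gRNA2+dox. Of the Pol I genes, UBTF was the nearest to TCOF1 at rank 379, then POLR1D (1389), NOLC1 (3835), RRN3 (4107), POLR1C (7017) and POLR1B (7136), while TAF1C, POLR1A and POLR1E had fewer than 400 reads in some library.

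The wider machinery was counted in lists of named genes. With 3.05% of all tested genes called lower and 2.08% higher in gRNA2+dox against gRNA2, lists of this size would hold few calls or none at the share of all genes. Of all 13 Pol I subunits, including those shared with other polymerases, none was called in any comparison, and their median log2 fold change in gRNA2+dox was 0.04 to gRNA2, −0.06 to CTL+dox and 0.08 to CTL. The extremes against gRNA2 were POLR2K, a shared subunit, at −0.14 and POLR1B at 0.41. CD3EAP, a Pol I subunit that overlaps a gene on the other strand, had 157 to 217 reads, and 859% of that when reads that overlap both genes were kept. Of 7 initiation factors none was called in any comparison either, with values in gRNA2+dox against gRNA2 from −0.25 (TAF1D) to 0.22 (TAF1A). The medians over all tested genes for the same 3 comparisons were −0.02, 0.00 and 0.01.

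The lists next to Pol I gave the same counts. None was called in the gRNA2+dox comparisons among 8 factors of ribosomal DNA silencing, 8 partners of treacle, 8 core proteins of the box C/D and H/ACA particles that modify ribosomal RNA, 7 upstream regulators such as MYC and MTOR, 7 subunits specific to Pol II, and 2 termination factors. The extreme values against gRNA2 in these lists belonged to KBTBD8, an adaptor of the ubiquitin ligase that modifies treacle, at −0.42 with only 28 to 45 reads and an interval that covered 0 (−1.17 to 0.28), and to POLR2G at 0.20 (0.06 to 0.34). Of 11 subunits specific to Pol III, POLR3G was called lower against gRNA2 (−0.59, −0.97 to −0.22), with 82, 89, 169 and 94 reads in CTL, CTL+dox, gRNA2 and gRNA2+dox. gRNA2 was the high library here. Of 5 abundant nucleolar proteins, MKI67, which also marks cycling cells, was called lower against gRNA2 (−0.65, −0.80 to −0.49) with 634, 521, 984 and 527 reads, and gRNA2 was again the high library. Against CTL+dox MKI67 was at 0.06 (−0.12 to 0.24). It was also lower in CTL+dox than in CTL, at −0.42 (−0.59 to −0.26). Its difference of the doxycycline ratios was −0.22, with an interval that covered 0.

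Genes of the S and G2/M phases of the cell cycle were mostly lower in the gRNA2+dox library and are given for that reason. Of 20 such genes, 1 was called lower against gRNA2 (PLK1, a mitotic kinase, at −0.67), 8 against CTL+dox (RRM2, CDK1, CCNB1, CCNB2, TOP2A, PLK1, CDC20 and CCNA2) and 7 against CTL. The shares of all tested genes called lower were 3.05%, 5.04% and 4.32%, so that the 1 of 20 against gRNA2 was near the share of all genes. Their values were below 0 for 20, 19 and 20 of the 20, with medians of −0.16, −0.38 and −0.29. Of the 15204 tested genes, 8235, 7577 and 7351 were below 0 in the same comparisons. In CTL+dox against CTL, where TCOF1 was also lower, none was called and the median was −0.01. In gRNA2 against CTL none was called either, but 16 of the 20 were below 0 with a median of −0.11, against 6766 of the 15204 tested genes. CDK1 (−0.45), CCNB1 (−0.46), CCNB2 (−0.41) and TOP2A (−0.39) had intervals off 0 in this comparison. For these genes the values against CTL and CTL+dox thus include a difference already present in the uninduced gRNA2 library. Of the other genes called against CTL+dox, RRM2, CDC20 and CCNA2 were at −0.19, −0.32 and −0.22 in gRNA2 against CTL. PLK1 was at 0.09 (−0.07 to 0.26) there. In gRNA2+dox against gRNA2, CCNB1 was at −0.10 (−0.36 to 0.14). CDK1, CCNB2 and TOP2A had intervals below 0 in that comparison, at −0.21 (−0.39 to −0.03), −0.38 (−0.67 to −0.09) and −0.41 (−0.62 to −0.20). For the difference of the doxycycline ratios, 20 of the 20 genes were below 0, with a median of −0.17, against 8219 of the 15204 tested genes. By the main rule 3 of them were called lower for this difference, against 3.87% of all tested genes. The part of cell cycle differences in the level of TCOF1 was not tested. In bulk RNA, fewer cells with a transcript and less of it per cell cannot be told apart.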

How the data were processed

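RNA-seq of MDA-MB-468 mammospheres gave 1 library for each of 4 conditions. Reads were trimmed with fastp and checked with FastQC, and the authors deposited raw counts per gene from STAR in gene quantification mode, on hg38 per the labels. The versions and the gene annotation are not given in the sources used here. The unstranded counts were used, since the first strand held 49.0% to 49.1% of stranded reads. Reads that fell on no gene (10.6% to 12.5%), on several places (3.39% to 4.85%) or on several genes (2.09% to 2.17%) were left out of the totals. The study's own tool for unreplicated libraries, GFOLD, was not rerun.

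Genes with at least 10 reads in at least 1 library were kept (15204 of 26475). Libraries were scaled with TMM factors (0.985 to 1.02, edgeR 4.0.16), and the log2 ratio was taken of scaled counts plus 0.5. Exact 95% Clopper-Pearson intervals came from the reads of the 2 libraries and cover counting error only, as do the Poisson intervals of levels. 3 reads, the limit that a count of 0 allows, correspond to 0.115 to 0.147 CPM. The standard error of the difference of ratios was the counting error of 4 libraries. The calculation was tested on simulated counts with Poisson spread only. That is the error the intervals assume, so the test cannot show how they perform with spread beyond it.

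The 10 genes, the 12 gene lists and the rules were chosen with earlier results of these data known. The genes named besides the 10 are those of a list called in gRNA2+dox against gRNA2 or CTL+dox, the extremes of a list, and the 5 profiles nearest to TCOF1, of which 1 is not reported here. Transcript lengths and the guide position came from GENCODE 44 on GRCh37, and gene positions from RefSeq on GRCh38.p14. Each value was also computed with the size factors of DESeq2 1.42.0, total counts, other filters (none, or 50 reads), a prior count of 5, thinning to the smallest library, summed stranded counts, other call rules and, added after the data were seen, intervals widened for extra spread.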

Additional observations from a re-analysis of the deposited data

Results flagged for a closer look

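For 4 of the 10 genes the log2 ratio with doxycycline had opposite signs in the CTL and the gRNA2 cells, as it did for 43.9% of the 15204 tested genes, so the count is near the share of all genes. With DESeq2 size factors POLR1D left this set and NOLC1 entered it, and with total counts POLR1D left and 3 remained. With 1 library per condition the difference between the cells was not tested against replicates. POLR1B was at −0.02 in CTL cells and 0.41 in gRNA2 cells, a difference of 0.43 (0.23 to 0.63). RRN3 was at 0.26 and −0.02, a difference of −0.28 (−0.49 to −0.06). TAF1C was at −0.10 and 0.14, a difference of 0.24 whose interval, −0.03 to 0.52, covered 0. POLR1D was at 0.00 and −0.03, a difference of −0.04 (−0.17 to 0.10). For none of the 4 did both ratios have an interval off 0.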

How the results depend on the processing

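No paired analysis was possible because every condition was sequenced as 1 library, which also left no replicate to drop in turn. The 60 log2 values of the 10 genes (6 quantities each) were computed again under 8 settings. The largest of the 480 shifts was 0.13, on thinning to the smallest library. There were 15 changes of sign, all of values whose interval covered 0, and the TCOF1 values that were called kept their direction and call under these 8. In gRNA2+dox against gRNA2 TCOF1 ranged from −1.27 (thinned) to −1.34.

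Counts of called genes depended on the rule. In the order gRNA2+dox to gRNA2, to CTL+dox and to CTL, CTL+dox to CTL, gRNA2 to CTL and the difference of ratios, the main rule called 463, 766, 657, 310, 442 and 589 genes lower and 316, 514, 368, 264, 301 and 441 higher. With the interval off 0 alone, 2632, 2957, 2228, 2181, 1792 and 2331 were lower and 2075, 3169, 2829, 2531, 2998 and 1763 higher, and of the 10 genes 2, 3, 3, 3, 2 and 2 were lower and 2, 4, 3, 2, 2 and 2 higher. With cutoffs after those of the study (a log2 fold change of at least 1 and the nearer end of a 98% interval beyond 0.5), 36, 139, 109, 12, 50 and 44 were lower and 32, 65, 60, 6, 14 and 41 higher. TCOF1 was then called against gRNA2 and against CTL, and 0 of the 10 genes against CTL+dox, in CTL+dox against CTL and for the difference. With at least 50 reads required, 185 genes were higher against gRNA2, 177 lower and 145 higher in CTL+dox against CTL, 247 lower in gRNA2 against CTL, and 289 higher for the difference.

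Shares of reads on each strand had a variance between libraries, estimated from quartiles, 1.34 times that of binomial sampling (median of 6 pairs). This was taken over 8383 genes with a mean of at least 346 stranded reads. Whether total counts carry the same extra spread was not tested. Intervals were widened by the square root of that variance ratio, an alternative chosen after seeing the data. They no longer lay off 0 for POLR1C against gRNA2 and in CTL+dox against CTL, nor for NOLC1 in gRNA2 against CTL. This left 167 genes higher in CTL+dox against CTL. Those of TCOF1 and POLR1B that lay off 0 stayed off it. Depth limits POLR1E most: a log2 ratio of about 0.2 in size was not detectable for it.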

Other observations

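The share of TCOF1 reads on the first strand was 48.4% in CTL (45.3% to 51.5%), 44.6% in CTL+dox (41.0% to 48.2%), 48.5% in gRNA2 (45.8% to 51.2%) and 42.1% in gRNA2+dox (37.4% to 46.9%, exact binomial). Over all genes the share was 49.0% to 49.1%. The 2 libraries with low TCOF1 had a lower share on that strand as well. The intervals of all 4 libraries overlapped, but each is the interval of a single library. The TCOF1 shares of 2 libraries were not compared directly. How many of all genes differ by as much was not counted. For RRN3 the share was 53.4%, 51.3%, 56.0% and 47.0% in the same order, and for POLR1B 48.7%, 48.8%, 48.5% and 46.8%. The RRN3 intervals of gRNA2 (52.4% to 59.5%) and gRNA2+dox (43.1% to 50.9%) did not overlap. Strand shares varied between libraries more than binomial sampling over 8383 genes with a mean of at least 346 stranded reads, by 1.34 times in variance. The cause was not tested.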
